A study of Mus musculus with 12 samples.

Results

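The 8 mouse Smad genes, Smad1 to Smad7 and Smad9, were described as a family in RNA of the cerebellar external granule layer, the outer sheet in which granule neuron precursors divide after birth. The members were chosen by name, 8 of the 53379 gene rows in each deposited table, and each was matched by its Ensembl identifier. Of the 8, 7 had enough reads to be tested between groups and Smad6 did not. The layer had been laser captured at postnatal day 6 in central lobules. The mice were of the C57BL/6 strain and came from litters with a conditional knockout of SnoN, with the control littermates labelled wild type. SnoN, encoded by Skil, is a transcriptional regulator that binds SMAD proteins. The gene deleted is named in the labels, and the Cre line or promoter that drives the deletion is not given in the sources used here.

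There were 6 wild-type and 6 knockout libraries, named WT or KO with the number in their title. WT2 and KO4 carry a mark as outliers from the submitters, so 5 libraries were compared with 5 (WT1, WT3, WT5, WT6 and WT7 against KO2, KO3, KO5, KO6 and KO8). KO2 has a knockout title and a wild-type genotype tag and was kept as knockout. The labels do not say that the libraries came from separate animals, so p-values measure the spread between these libraries, which may be partly technical.

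SMAD proteins carry signals of the TGF-beta family from the cell surface to the nucleus. Receptors for TGF-beta and activin phosphorylate SMAD2 and SMAD3, and receptors for bone morphogenetic proteins (BMPs) phosphorylate SMAD1, SMAD5 and SMAD9. These receptor-activated SMADs pair with SMAD4, the common partner, and the complexes bind DNA, while SMAD6 and SMAD7 are inhibitory members that the pathway itself induces. In the cerebellum BMP signalling is known to restrain the division of granule neuron precursors, and SnoN and its relative Ski act on SMAD complexes as corepressors. The transcript level of a Smad gene does not measure the phosphorylation or the activity of its protein.

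RefSeq's promoter table (GRCm38.p6) held windows for 5 of the 8 genes, Smad1, Smad3, Smad5 (with 3 starts), Smad6 and Smad9. The 250 bases before each RefSeq start were searched on both strands for letters that SMAD complexes are known to bind. They are shown for Smad1, the member with the smallest p between the groups, and for Smad9, the receptor-activated member with the lowest level. Capitals mark GGCGCC, a GC-rich element known from BMP targets. The Smad1 window is chr8:79399429-79399678 on the minus strand and the Smad9 window is chr3:54755332-54755581 on the plus strand, both in GRCm38.p6 and written 5′ to 3′ along the gene.
Smad1: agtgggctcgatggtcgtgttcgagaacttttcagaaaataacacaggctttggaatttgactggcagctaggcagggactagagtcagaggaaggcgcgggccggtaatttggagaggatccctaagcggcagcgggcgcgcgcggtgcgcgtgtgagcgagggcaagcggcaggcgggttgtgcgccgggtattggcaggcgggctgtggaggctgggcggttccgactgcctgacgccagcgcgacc
Smad9: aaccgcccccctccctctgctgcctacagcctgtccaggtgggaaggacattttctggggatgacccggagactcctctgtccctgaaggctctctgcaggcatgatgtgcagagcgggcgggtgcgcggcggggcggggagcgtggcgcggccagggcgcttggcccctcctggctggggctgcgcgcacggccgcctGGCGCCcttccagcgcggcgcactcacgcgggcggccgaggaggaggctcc
GGCGCC occurred in the Smad9 window and in 1 of the 3 Smad5 windows, and in 9.59% of all 32851 windows of this length. GTCTG, which is the SMAD box GTCT with a trailing G, was searched together with its reverse complement CAGAC. Either occurred in 1 of the 7 windows, a Smad5 window, against 42.2% of all windows. GTCT without the trailing G was not counted. The palindrome GTCTAGAC occurred in 0 of the 7 and in 0.167% of all windows. The 7 windows held 22 to 27 CpG dinucleotides and 60.0% to 73.2% G and C, against medians of 6 and 52.4% over all windows. The Smad1 window and some Smad5 windows lie partly or wholly inside the gene positions given below. Some Smad5 windows also overlap each other, so the 7 are not all separate sequences. A match is a description of letters and does not show binding.

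Gene positions were taken from GENCODE M21 on GRCm38, which is mm10. The family lies on 5 chromosomes, with 2 groups of neighbours. Smad3 (ENSMUSG00000032402.12, chromosome 9, 63646767 to 63757994, minus strand) and Smad6 (ENSMUSG00000036867.7, chromosome 9, 63953076 to 64022059, minus strand) are separated by 195 kb. Smad4 (ENSMUSG00000024515.13, minus strand, from 73639009), Smad7 (ENSMUSG00000025880.11, plus strand, from 75367529) and Smad2 (ENSMUSG00000024563.15, plus strand, to 76310963) lie within 2672 kb of chromosome 18. Smad1 (ENSMUSG00000031681.16, chromosome 8, 79338395 to 79399518, minus strand), Smad5 (ENSMUSG00000021540.16, chromosome 13, 56703010 to 56742377, plus strand) and Smad9 (ENSMUSG00000027796.2, chromosome 3, 54755582 to 54801257, plus strand) stand alone. The library kit does not mark strand. Of the 8 genes, 7 overlap no gene of the opposite strand, and the 1 gene opposite Smad4 shares no exon position with it. Exons of Smad5 overlap those of the provisional gene Gm27301 on the same strand, where reads could be ambiguous between them.

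In wild-type external granule layer the common partner Smad4 was the most abundant Smad transcript per length, and the BMP-branch genes Smad5 and Smad1 stood above the TGF-beta-branch genes Smad2 and Smad3. Levels of different genes were compared as counts per 1e+06 (CPM, scaled with TMM factors) per kb of the gene's exons. Smad4 stood at 49.1 ± 3.74 CPM per kb (SD, n = 5 here and below). Smad5 followed with 19.8 ± 2.38 and Smad1 with 8.74 ± 1.22. These are the common partner and carriers of BMP signals. Smad2 had 6.88 ± 0.728 CPM per kb. The inhibitory Smad7 had 3.21 ± 0.222, above the receptor-activated Smad3 at 0.921 ± 0.184. Smad6 and Smad9 were lowest, at 0.129 ± 0.0475 and 0.124 ± 0.129 CPM per kb. Of the family's summed level per length in wild type, Smad4 made up 55.2%, Smad5 22.3%, Smad1 9.80% and Smad2 7.75%. Smad7 made up 3.62% and Smad3 1.05%.

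The order was the same in knockout libraries as far down as Smad3. In all 10 compared libraries Smad4 lay above Smad5, Smad5 above Smad1, Smad1 above Smad2, Smad2 above Smad7, Smad7 above Smad3 and Smad3 above Smad9. The smallest step was from Smad1 to Smad2, a mean ratio of 1.46 (log2 ratio 0.55 ± 0.27, SD, n = 10). Each of these 6 steps gave a p of 0.00195 in a two-sided exact sign-flip test over libraries, the smallest that 10 libraries can give (0.00228 adjusted over 7 steps). The steps were picked from the order of the mean over these same 10 libraries, so the test is not independent evidence of that order. Smad9 and Smad6 did not differ beyond their spread. Smad9 was the higher of them in 5 of the 10 libraries (log2 ratio 0.12 ± 1.81, exact p = 0.865). Dividing by the longest transcript in place of all exons raised the Smad1 to Smad2 step to 1.158 log2 units and lowered the Smad5 to Smad1 step from 1.10 to 0.54, because the longest Smad1 transcript has 3775 bases and its exons together 6262.

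**Figure D1:**
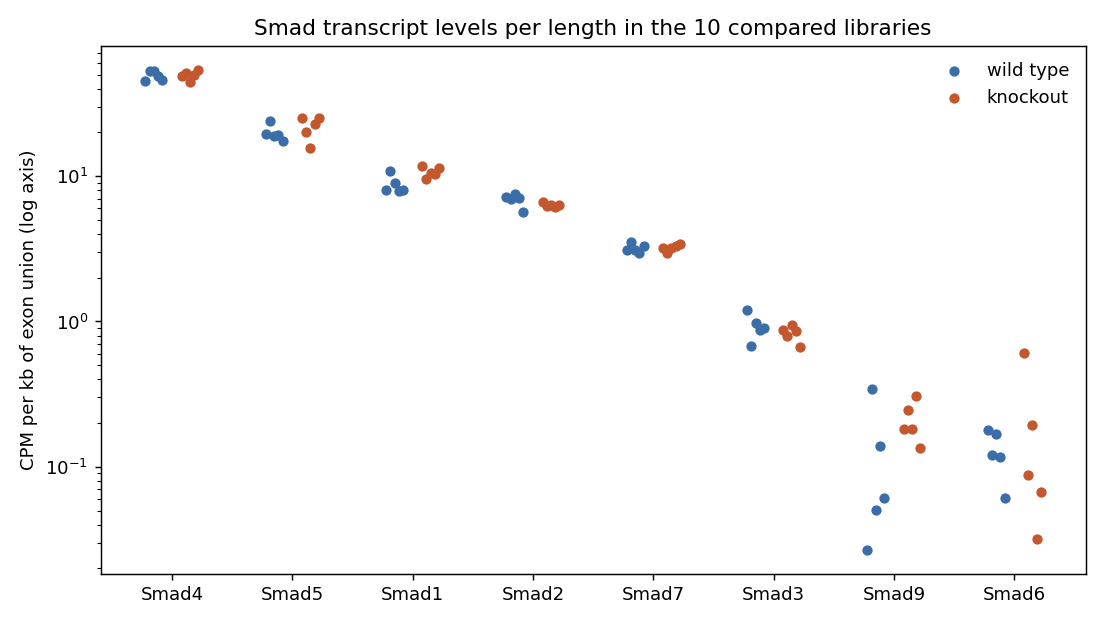
Level of each Smad transcript in CPM per kb of exon union on a log axis, one point per library, for 5 wild-type and 5 knockout libraries, in the order of the mean over 10 libraries. Smad4 sits between 44.7 and 53.8, Smad3 between 0.662 and 1.19, and the points of Smad9 and Smad6 overlap below 0.7.

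The comparison of knockout with wild type asks which transcripts of the layer depend on the presence of SnoN. Skil itself stood at 49.9 ± 7.98 CPM in the wild-type group and at 30.7 ± 6.38 in the knockout group (SD, n = 5 each). All 5 knockout libraries lay below all 5 wild-type libraries (two-sided exact permutation p = 0.00794). That p is the smallest that 5 against 5 libraries can give, and groups lay apart for 2.35% of all genes tested. The nearest libraries were KO3 at 36.7 CPM and WT6 at 38.5. In edgeR's quasi-likelihood test Skil had a Benjamini-Hochberg adjusted p of 0.124 and did not pass. Reads on all its exons were counted, and which of them the deletion removes is not given in the sources used here. Gene counts per library summed to between 7520076 and 15083086. In edgeR's quasi-likelihood test 3 of 13442 genes passed a Benjamini-Hochberg adjusted p of 0.05, which is 0.0223%, and none was a Smad gene. At an unadjusted p under 0.05, 2925 genes (21.8%) differed. The count of genes that passed rested on single libraries. It was 3102 without KO5, 6 without KO6, 1 without WT6 or KO8, and 0 without WT7 or KO2 (unadjusted p under 0.05 in 2463 and 1942 genes). The number of Smad genes that passed was 0 in edgeR's test in each of these fits, and 1 or 2 had an unadjusted p under 0.05 in each. Over all genes tested, 14.3% (without KO2) to 35.5% (without KO5) had such a p in these fits. The chi-square per degree of freedom, a measure of the difference between libraries, was 12.6 between KO5 and the marked KO4. Between KO5 and the compared KO2, KO3, KO6 and KO8 it was 46.4, 49, 21.7 and 52.2. The part of this in the counts was not tested. Markers of the granule neuron lineage were present. Of 10 such markers 2 were higher (Pax6 and Neurod1) and 2 lower (Barhl1 and Mfap4) in knockout at an unadjusted p under 0.05. The summed level of the 10 was 3940 to 6030 CPM in wild type and 4370 to 7610 in knockout. The largest part of it was Neurod1, at 1500 to 3410 CPM in wild type and 2030 to 4690 in knockout, so the sum does not measure precursors alone. Atoh1 was at 75.1 to 115 CPM in wild type and 87.1 to 114 CPM in knockout. Markers of other cell types were present too. In bulk tissue, fewer cells of a type and less RNA per cell cannot be told apart.

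Of the 7 Smad genes tested, 0 passed over all genes and 1, Smad1, had an unadjusted p under 0.05. That is 14.3% of 7, against 21.8% of all genes tested. The median log2 fold change of the 7 was 0.02 and that of all genes tested was 0.00. The summed level of the 8 genes per length was 89 ± 7.13 CPM per kb in wild type and 93 ± 7.28 in knockout (SD, n = 5 each, exact permutation p = 0.389). For no Smad gene did the 5 knockout libraries lie apart from the 5 wild-type libraries. Over all genes tested 2.35% had groups that did not overlap.

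Smad1, a carrier of BMP signals, had the smallest p of the family. WT1 had 50.2 CPM, WT3 had 67.4, WT5 had 56.5, WT6 had 49.2 and WT7 had 50.2. KO2 had 73.6 CPM, KO3 had 60.1, KO5 had 65.9, KO6 had 64.5 and KO8 had 70.6. All 5 knockout libraries lay above the wild-type mean, and the groups overlapped because WT3 exceeded 3 of the 5 knockout libraries. The means were 54.7 ± 7.66 and 66.9 ± 5.26 CPM (SD, n = 5 each), a 1.22-fold difference (log2 fold change 0.29, SE 0.11, 95% interval of the fold 1.04 to 1.44). The unadjusted p was 0.0171 and the adjusted p 0.161 in edgeR's test, so Smad1 did not pass. It ranked 1422 of 13442 genes by p. The two-sided exact permutation p was 0.0317.

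The marked libraries lay in the same order for Smad1, since WT2 had 62.6 CPM and KO4 had 97.5, the highest of all 12. The fit to all 12 gave a log2 fold change for Smad1 of 0.36 (edgeR's unadjusted p = 0.0138, adjusted p = 0.999). KO2, the highest of the compared libraries, is the one with a wild-type genotype tag. Counted as wild type, it moved the log2 fold change to 0.18 (unadjusted p = 0.196). Scaling by library size alone gave 0.21 for Smad1 (edgeR's unadjusted p = 0.0801). The replicate number as a block gave 0.15 (edgeR's unadjusted p = 0.395). Some other values moved with the groups. The summed level of 8 Purkinje cell markers was 238 to 346 CPM in wild type and 294 to 541 in knockout, and 4 of the 8, Calb1, Car8, Itpr1 and Foxp2, were higher at an unadjusted p under 0.05. Of those 8 markers Skor2 was at 0 in at least 1 library, and Pcp2 was at 10.7 to 21.9 CPM in wild type and 14 to 24.3 in knockout. For 8 markers of Bergmann glia and astrocytes the sum was 570 to 960 CPM in wild type and 792 to 1220 in knockout, with 1 of 8, Fabp7, higher at that level and none at 0. Their part in the Smad1 difference was not tested.

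Smad5 was the most abundant carrier of BMP signals here. Its coefficient of variation was 12% in wild type and 18.3% in knockout, against 14% and 7.86% for Smad1. It was at 145, 177, 141, 143 and 130 CPM in WT1, WT3, WT5, WT6 and WT7. It was at 188, 149, 117, 168 and 186 CPM in KO2, KO3, KO5, KO6 and KO8. The knockout libraries held both the highest values and the lowest. The means were 147 ± 17.7 and 162 ± 29.6 CPM (SD, n = 5 each). Between them lay 0.14 log2 units (SE 0.13, edgeR's unadjusted p = 0.300, adjusted p = 0.543). Single libraries moved this value, to 0.23 without KO5 (edgeR's unadjusted p = 0.0327, adjusted p = 0.105), 0.21 without WT3, 0.08 without KO2 or KO8 and 0.01 with KO2 counted as wild type. It was 0.01 after removal of the dependence on GC content that each library showed (adjusted p = 0.980).

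Smad9, the third carrier of BMP signals, was near the limit of detection. Its reads numbered 2, 19, 3, 6 and 5 in WT1, WT3, WT5, WT6 and WT7. They numbered 10, 14, 11, 16 and 10 in KO2, KO3, KO5, KO6 and KO8. WT3 was the highest library of all 10, and the other 4 wild-type libraries had fewer reads than any knockout library. On the CPM scale WT6, at 0.742, lay just above KO8, at 0.720. The means were 0.663 ± 0.691 and 1.13 ± 0.358 CPM (SD, n = 5 each). The fitted fold was 1.75, with a 95% interval from 0.761 to 4.03 (adjusted p = 0.414 in edgeR's test), so neither direction was detectable at this depth. Leaving out WT3 raised the log2 fold change from 0.81 to 1.67 (edgeR's unadjusted p = 0.00772, adjusted p = 0.101).

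On the TGF-beta and activin branch, Smad2 was the main transcript. It had 63.5 CPM in WT1, while WT3 had 61.1, WT5 65.8, WT6 62.2 and WT7 49.4. KO2 had 58.3 CPM, KO3 54.5, KO5 55.5, KO6 54.2 and KO8 55.8. Each knockout value lay below the other wild-type values and above WT7, which stood apart from its group. The means were 60.4 ± 6.39 and 55.7 ± 1.62 CPM (SD, n = 5 each). The log2 fold change, -0.12 with an SE of 0.10, did not pass in edgeR's test (unadjusted p = 0.266, adjusted p = 0.511). Without WT7 it was -0.18 (edgeR's unadjusted p = 0.0822, adjusted p = 0.326). With the GC trend removed it was -0.23 (unadjusted p = 0.0341, adjusted p = 0.288).

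Smad3, the other carrier on this branch, was much scarcer, with 39 to 91 reads per library. It had 5.11 ± 1.02 CPM in wild type, from 3.76 in WT3 to 6.58 in WT1, and 4.58 ± 0.598 CPM in knockout, from 3.67 in KO8 to 5.26 in KO5 (SD, n = 5 each). The groups overlapped over most of their range. The log2 fold change was -0.16 with a 95% interval from -0.62 to 0.29 (adjusted p = 0.678 in edgeR's test). It was -0.05 without WT1, -0.09 without KO8 and -0.26 without WT3.

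**Figure D2:**
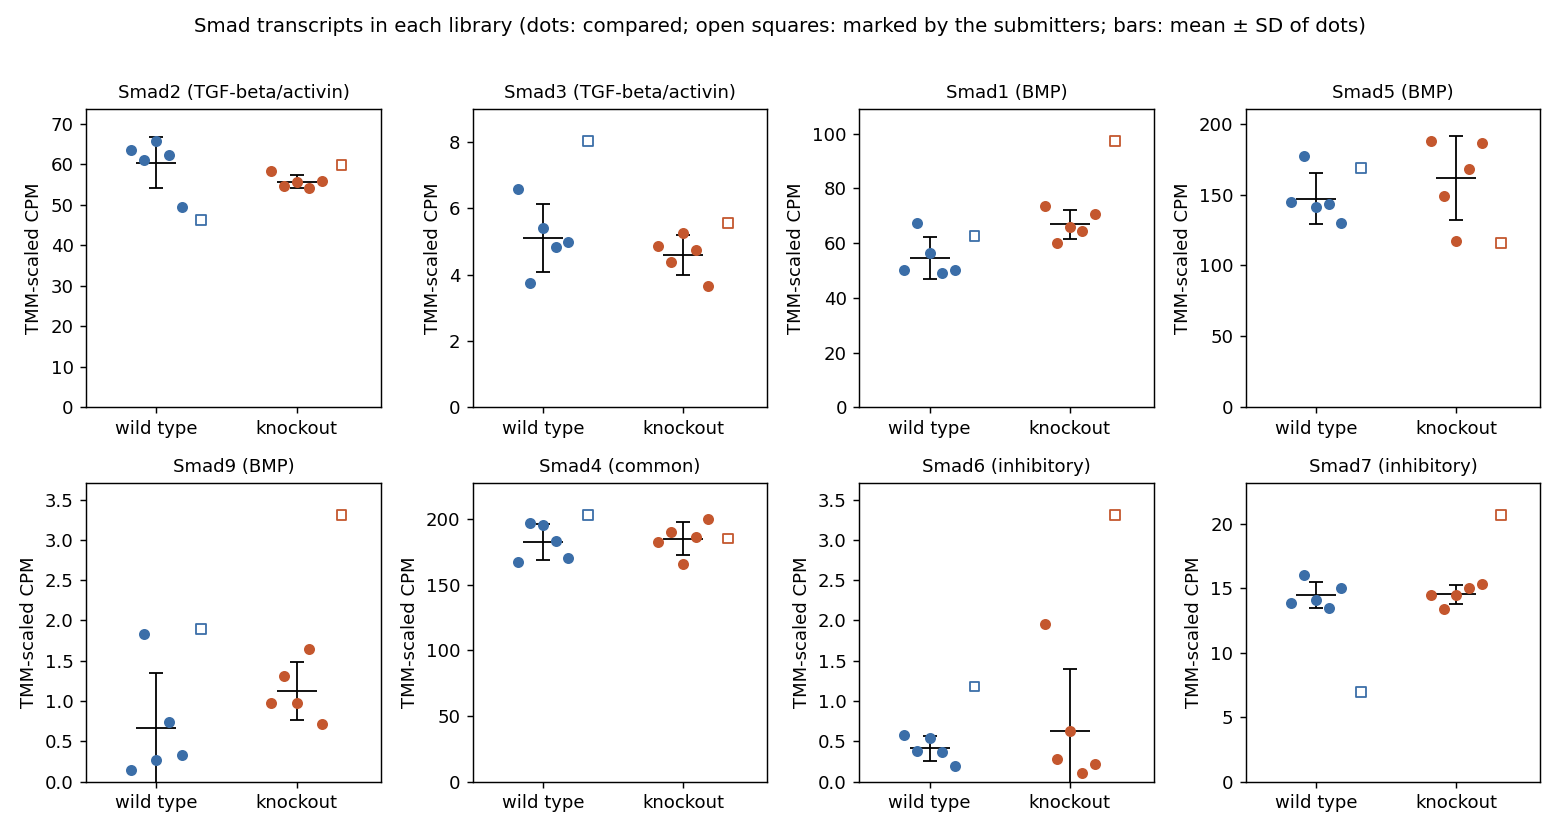
TMM-scaled CPM of the 8 Smad transcripts by group, with one dot per compared library, an open square for the marked library of each group, and bars for the mean and SD of the 5 dots (cut at 0 where the SD exceeds the mean). Wild-type and knockout dots overlap in every panel, and the open squares of Smad7 (6.97 and 20.7 CPM) lie outside the dots on opposite sides.

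Smad4, through which both branches act, varied little within either group, with a coefficient of variation of 7.61% in wild type and 6.69% in knockout. The wild-type libraries had 167, 197, 195, 183 and 170 CPM in WT1, WT3, WT5, WT6 and WT7. The knockout libraries had 182, 190, 166, 186 and 200 CPM in KO2, KO3, KO5, KO6 and KO8. Both groups covered nearly the same range. The means were 182 ± 13.9 and 185 ± 12.3 CPM (SD, n = 5 each), a difference of 0.02 log2 units with a 95% interval from -0.18 to 0.22 (adjusted p = 0.921 in edgeR's test). Its sign turned with the marked libraries (-0.01) and with scaling by library size alone (-0.07).

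Of the inhibitory members, Smad7 is a direct target of TGF-beta signalling and sends the receptor for degradation. WT1 held 13.9 CPM of it, WT3 16.0, WT5 14.1, WT6 13.5 and WT7 15. KO2 held 14.5, KO3 13.4, KO5 14.5, KO6 15 and KO8 15.3. The spread within each group was small, with a coefficient of variation of 6.92% in wild type and 4.90% in knockout. The log2 fold change was 0.00 (SE 0.13, adjusted p = 0.990 in edgeR's test), and the 95% interval of the fold ran from 0.830 to 1.21. Scaling by library size alone gave -0.08 and removing the GC trend gave 0.17 (adjusted p = 0.558).

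Smad6, the inhibitor that BMP signalling induces, did not pass the filter on low counts. Its reads numbered 8, 4, 6, 3 and 3 in WT1, WT3, WT5, WT6 and WT7. They numbered 20, 3, 7, 1 and 3 in KO2, KO3, KO5, KO6 and KO8. KO2 held 20 of the 34 knockout reads, and the other 4 knockout libraries together had 14 reads against 24 in the 5 wild-type libraries. Added to the genes tested, Smad6 had a log2 fold change of 0.58 (unadjusted p = 0.403, adjusted p = 0.634 in edgeR's test). Smad6 and Smad7 are also known from endothelial cells. The summed level of 8 endothelial markers was 213 to 279 CPM in wild type and 186 to 336 in knockout, with 215 in KO2, and none of the 8 was at 0. Their part in the Smad6 values was not tested.

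**Figure D3:**
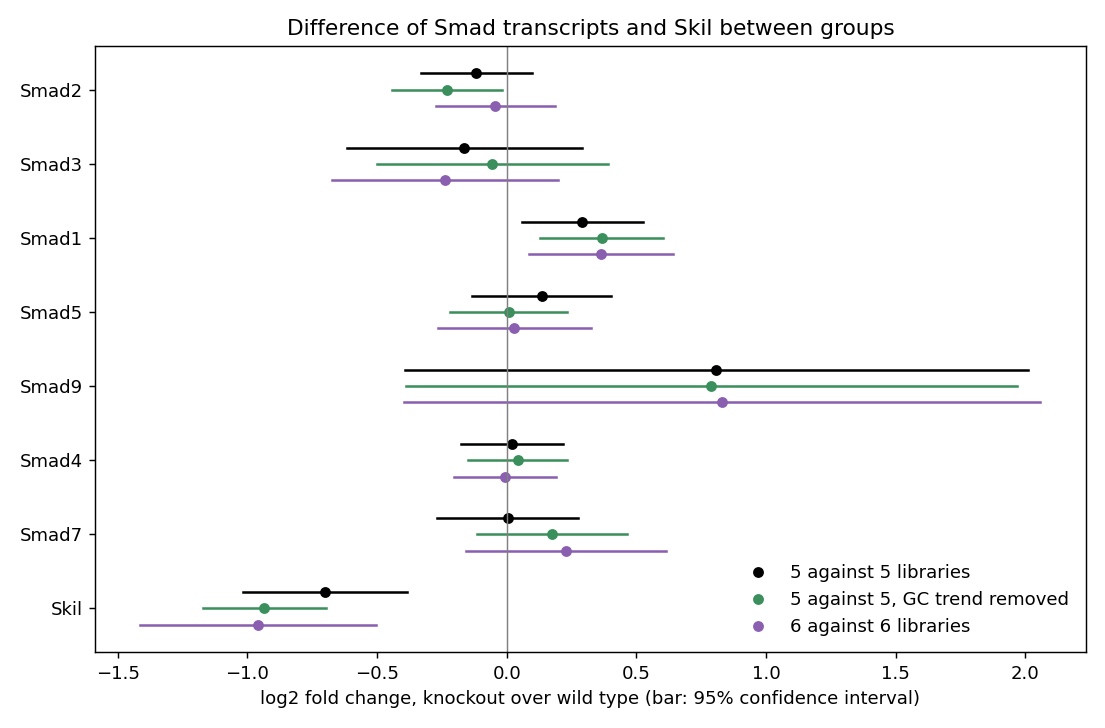
Log2 fold change of knockout over wild type with its 95% confidence interval for the 7 Smad genes tested and for Skil, in the fit to 5 against 5 libraries, the same with each library's GC trend removed, and the fit to 6 against 6 libraries. The intervals of Smad1 lie above 0 in all 3 fits (0.058 to 0.525 in the first), and the interval of Smad2 lies below 0 only with the GC trend removed (-0.441 to -0.019).

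The balance between members was also compared within each library, which does not depend on how libraries are scaled to one another. For 4 ratios of summed CPM per kb, two-sided exact permutation tests over the 10 libraries were run and adjusted over the 4. The TGF-beta-branch genes Smad2 and Smad3 over the BMP-branch genes Smad1, Smad5 and Smad9 had ratios of 0.306, 0.219, 0.302, 0.292 and 0.255 in WT1, WT3, WT5, WT6 and WT7. The ratios were 0.202, 0.234, 0.275, 0.211 and 0.192 in KO2, KO3, KO5, KO6 and KO8. Of the 5 knockout libraries 3 lay below every wild-type library, and KO5 lay among the wild-type values. The log2 ratio was -1.88 ± 0.21 in wild type and -2.18 ± 0.21 in knockout (SD, n = 5 each), a difference of -0.30 (exact permutation p = 0.0556, adjusted p = 0.222). The marked libraries were in the opposite order, at 0.203 in WT2 and 0.246 in KO4, and with them the difference was -0.21 (exact permutation p = 0.149). With KO2 counted as wild type it was -0.20 (exact permutation p = 0.238).

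Within the TGF-beta branch, Smad3 over Smad2 had a log2 ratio of -2.92 ± 0.31 in wild type and -2.95 ± 0.20 in knockout (SD, n = 5 each, exact permutation p = 0.849). Smad4 over the 5 receptor-activated members had 0.43 ± 0.10 and 0.33 ± 0.13 (exact permutation p = 0.175, adjusted p = 0.349), and the difference of -0.11 became -0.06 without KO2 and -0.01 with KO2 counted as wild type. The inhibitory pair Smad6 and Smad7 over the receptor-activated members had -3.45 ± 0.12 and -3.54 ± 0.14 (exact permutation p = 0.294, adjusted p = 0.392), with 4 of 5 knockout libraries below every wild-type library. That difference of -0.09 was -0.15 without KO5 (exact permutation p = 0.0159, adjusted p = 0.0635) and -0.04 without WT7. It turned to 0.147 with the GC trend removed (exact permutation p = 0.0873, adjusted p = 0.175). With all 12 libraries it turned to 0.183 (exact permutation p = 0.468). KO2, at -3.552, lay just under WT3, at -3.541. None of the 4 ratios passed at 0.05. Wild-type and knockout ranges overlapped for each.

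**Figure D4:**
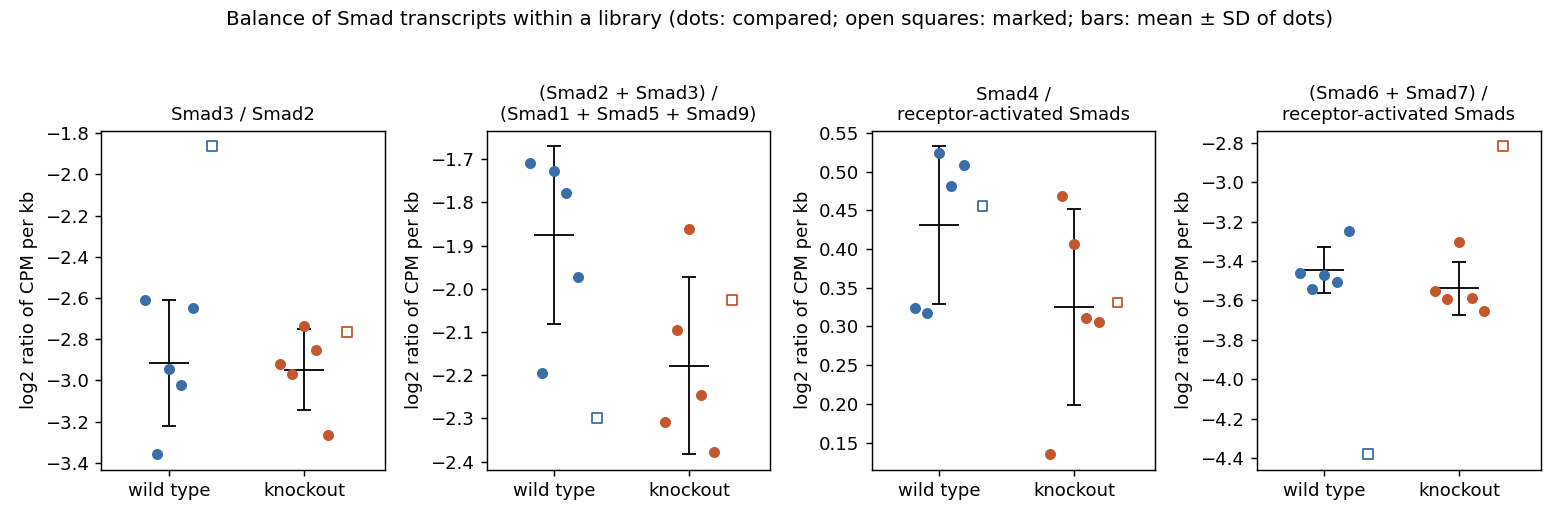
Log2 ratios of CPM per kb between Smad members within each library, with dots for the compared libraries, open squares for the marked ones, and bars for the mean and SD of the 5 dots. For Smad2 and Smad3 over Smad1, Smad5 and Smad9 the dots run from -2.19 to -1.71 in wild type and from -2.38 to -1.86 in knockout.

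The genes around the SMADs were counted by role, from lists that exclude the Smads themselves. Of 89 genes measured in 9 lists, 0 passed over all genes in edgeR's test. At an unadjusted p under 0.05, 15 were higher in knockout (16.9%) and 5 lower (5.62%), against 11.8% and 9.97% of all genes tested. Of 7 TGF-beta, activin and related ligands measured, 0 had an unadjusted p under 0.05, and of 7 BMP and related ligands 1 was lower, the protease Bmp1 (32.4 ± 2.72 against 26.4 ± 2.86 CPM, SD, n = 5 each). The ligand Bmp7 had a log2 fold change of 0.33 with an SE of 0.35, and Gdf11 0.22 with an SE of 0.19. Of 10 extracellular antagonists and modulators 1 was lower, Ltbp3, which holds latent TGF-beta in the matrix (66.6 ± 9.14 against 53.0 ± 5.03 CPM, SD, n = 5 each). Of 7 type I receptors 2 were higher, with Tgfbr1 at a log2 fold change of 0.51 (adjusted p = 0.129), and of 6 type II receptors and co-receptors 2 were higher, with the activin receptor Acvr2a at 0.40 (adjusted p = 0.171).

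Inside the cell, 5 of 16 SMAD anchors, coactivators and corepressors were higher and 1, the deleted gene Skil, was lower at that level. The shares over all genes tested, 11.8% higher and 9.97% lower, belong beside this and the counts below. The acetyltransferase Crebbp, a SMAD coactivator, had 92.3 ± 18.8 CPM in wild type and 126 ± 16.7 in knockout (SD, n = 5 each, adjusted p = 0.131 in edgeR's test). Of 15 ubiquitin ligases, deubiquitinases and phosphatases of SMADs 3 were higher, led by the ligase Wwp1 (log2 fold change 0.59), and 2 lower, led by the deubiquitinase Usp11 (-0.50). Among genes that the pathway induces, 1 of 13 TGF-beta targets was higher, Thbs1 (1.31 ± 0.767 against 2.88 ± 1.07 CPM, SD, n = 5 each), and 2 of 8 BMP targets were higher, with Id4 at a log2 fold change of 0.79 (adjusted p = 0.131). The median log2 fold change was 0.20 for the BMP targets, 0.06 for the TGF-beta targets and 0.24 for the type II receptors and -0.12 for the ubiquitin ligases, deubiquitinases and phosphatases, against 0.00 for all genes tested. Id3, another BMP target, had 21.8 ± 2.34 CPM in wild type against 19.4 ± 5.44 (SD, n = 5 each, log2 fold change -0.16), and the TGF-beta target Acta2 had a log2 fold change of -0.54 with an SE of 0.36. None of these genes passed in the comparison of 5 with 5 libraries. Skil passed in 5 of 23 alternatives, 1 of them DESeq2 (adjusted p = 0.0104). In edgeR's test its adjusted p was 0.000259 with no filter beyond a count of 1 and 0.000756 with the GC trend removed. It was 0.00324 with that trend removed in all 12 libraries and 0.00275 without KO5. In the other 18 alternatives Skil did not pass, with an adjusted p in edgeR's test of 0.0733 without WT3 and 0.999 with all 12 libraries.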

How the data were processed

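RNA from laser-captured external granule layer was measured by sequencing in 12 libraries. The authors deposited 1 table of raw read counts per library. The submitters' processing notes name cutadapt 1.16, STAR 2.5.3a, HTSeq 0.6.1, DESeq2 and build mm10. Settings, annotation release and strandedness of counting: not given in the sources used here. Reads aligned to several places made up 64.4% to 67.6% of records, and with the other summary rows were left out.

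Identifiers were matched to GENCODE M21 (53274 of 53379). Genes were filtered with filterByExpr (minimum count 10), scaled with TMM and tested with the robust quasi-likelihood F test of edgeR 4.0.16 and Benjamini-Hochberg adjustment (R 4.3.3, limma 3.58.1). Intervals come from the fitted coefficient and its F statistic. Printed CPM use filter and factors from all 12 libraries, and permutation tests of genes use log2(CPM + 1). Alternatives were DESeq2 1.42.0, limma voom, other scalings and filters, KO2 as wild type, the marked libraries included, the GC trend (spline, 5 degrees of freedom) as an offset, a replicate block, and each library left out. The GC correction on all 12 libraries and the fit with Smad6 added were chosen after seeing the data. The members, lists and tests were chosen with earlier results of these data known. Named genes were the 8 members, Skil, the list member with the smallest p in each direction, and the genes most like Smad4 and Smad7, of which 1 is not reported here; single markers and the other genes named were chosen after their values were seen. The fit was tested on simulated data with 5 against 5 libraries. It called 37.9% of genes changed 1.5-fold, 78.5% of those changed 2-fold and 96.6% of those changed 4-fold. Of its calls 7.64% were unchanged genes. The simulated counts were drawn independently for each gene, without differences that many genes of a library share. These shares may therefore be higher than in the real comparison, where single libraries moved the count of genes passing.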

Additional observations from a re-analysis of the deposited data

Results flagged for a closer look

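In 48 sets of values, the 8 Smad genes and 4 ratios in each group with and without the marked library, 8 had a highest or lowest library far from the others by Dixon's criterion. Chance flags about 1 in 20 sets, and these sets share libraries. Of the compared libraries, WT7 was low for Smad2 (49.4 CPM against 61.1 to 65.8 in the other wild-type libraries) and high for the log2 ratio of Smad6 and Smad7 over the receptor-activated members (-3.25). KO2 was high for Smad6 (1.95 CPM, from 20 reads). The other 5 came from the marked libraries. KO4 was high for Smad1 (97.5 CPM), Smad7 (20.7 CPM) and Smad9 (3.31 CPM), and WT2 was low for Smad7 (6.97 CPM) and for the ratio of the inhibitory pair to the receptor-activated members (-4.38). The trend of each library on GC content, read at the GC content of Smad7 (56.9%), was -0.38 log2 units in WT2 and 0.10 in KO4. The part of this trend in the Smad7 values was not tested.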

How the results depend on the processing

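No Smad gene passed in any of the 23 alternative settings. The direction of Smad1, Smad2 and Smad9 was kept in every setting that tested them, and the range of adjusted p over settings was 0.0546 to 1 for Smad1, 0.276 to 1 for Smad2 and 0.0905 to 1 for Smad9. Smad9 was not tested under the filter of 1 CPM in 5 libraries, and DESeq2 gave it and Smad3 no adjusted p. The 6 upper steps in the order of levels passed in every setting tried. The number of genes passing, 3, was 1 with all 12 libraries, 1 with only WT2 left out, 965 with no filter beyond a count of 1, 461 with DESeq2, 5 with the GC trend removed, 0 with KO2 counted as wild type (756 with edgeR's unadjusted p under 0.05), and 0 to 3102 with 1 library left out. The cause was not tested.

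Signs turned for Smad3, Smad4, Smad5, Smad7 and some ratios, and the cause was not tested. Smad4 turned to -0.008 with all 12 libraries, -0.012 with only KO4 left out and -0.069 with library size alone, and ranged from -0.011 to 0.056 with 1 library left out. Smad7 turned to -0.080 with library size alone and ranged from -0.020 to 0.040 with 1 library left out. Smad5 turned to -0.023 with the GC trend removed in all 12 libraries. Library size alone moved the median of all genes from 0.001 to -0.083. The ratio of Smad6 and Smad7 to the receptor-activated members turned to 0.183 with all 12 libraries and 0.147 with the GC trend removed. Smad3 over Smad2 turned to 0.194 with the GC trend removed and ranged from -0.142 to 0.047 with 1 library left out, and Smad9 over Smad6 from -0.233 to 0.433.

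Numbers 3, 5 and 6 occur in both groups. Across 13442 genes the deviations of same-numbered libraries correlated at 0.14, -0.07 and 0.11, and only number 3 matched its own number best, so the numbers were not taken as pairs. With the replicate number as a block edgeR called 0 genes (607 at an unadjusted p under 0.05), with 0.148 for Smad1, 0.050 for Smad3, -0.088 for Smad4, -0.096 for Smad5 and -0.020 for Smad7, and within-number differences of -0.168 for the TGF-beta over the BMP branch, 0.256 for Smad3 over Smad2 and 0.011 for the inhibitory pair over the receptor-activated members. At 1 to 20 reads per library Smad6 and Smad9 limit what a difference can show.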

Other observations

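Across all 12 libraries the extremes of the family gathered in the marked ones. KO4 was the highest library for Smad1, Smad6, Smad7 and Smad9 and the lowest for Smad5, at 116 CPM. WT2 was the highest for Smad3 (8.04 CPM) and Smad4 (203 CPM) and the lowest for Smad2 (46.3 CPM) and Smad7. Smad6 had 34 reads in KO4 and 10 in WT2, and Smad9 34 and 16.

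Among the genes whose level followed Smad4 most closely over the 10 compared libraries were Vps26a and Ppp1r8, with a mean absolute difference of centred log2(CPM + 1) of 0.043 and 0.044, against a median of 0.191 over 8618 genes. For Smad7 they were Actb (0.045), Zfp180 (0.048) and Fam69a (0.049), against a median of 0.184. Both members vary little, so this measure picks genes that vary little too.

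Smad1 lies on chromosome 8, where 23.2% of 706 genes tested had a p under 0.05 before adjustment in edgeR's test, against 21.7% of 12736 genes elsewhere.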
